A study of Mus musculus with 2 samples.

Results

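The 4 Hox clusters held 443 of the 1300009 nucleosomes called in an ethanol library of mouse embryonic stem (ES) cells and 365 of the 1424844 called in a tamoxifen library. A call was assigned to a cluster when its centre, the midpoint of its start and end, lay within the limits of the cluster on build mm9. These limits were 52100000 to 52220000 on chromosome 6 for HoxA, 96050000 to 96235000 on chromosome 11 for HoxB, 102745000 to 102875000 on chromosome 15 for HoxC and 74490000 to 74610000 on chromosome 2 for HoxD. The 500 kb on each side of a cluster, called its lower and upper flank by coordinate, served as the reference and held 2634 ethanol and 2960 tamoxifen calls. Both libraries came from cells with floxed Brg1 alleles (Brg1fl/fl) and an Actin-CreER transgene, in which tamoxifen switches on the Cre recombinase that deletes the floxed sequence. Cells in serum-LIF medium received 0.8 µM tamoxifen, or ethanol as the vehicle, for 24 hours and were harvested after another 48 hours without either. Nuclei were digested with micrococcal nuclease (MNase), which cuts the DNA between nucleosomes, and DNA of single-nucleosome size from the digest with 12 U was sequenced. Each group had 1 library, so no test was made, no p-value is given and the spread between cultures or digests is unknown. The treatment cannot be told apart from differences between the 2 cultures, digests or libraries. Below, after tamoxifen means in the tamoxifen library. Tamoxifen itself and the loss of Brg1 cannot be told apart in this design, the Smarca4 gene that encodes Brg1 was not analysed here, and call lists carry no marker genes by which the cell type could be checked.

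Hox genes encode homeodomain transcription factors that give the body axis its regional identity. They lie side by side in clusters, in an order that matches the order in which they are expressed along the axis. In ES cells the clusters are largely silent and are classic targets of the Polycomb repressive complexes, which mark their CpG-rich chromatin with methylated histone H3. Brg1 is the motor subunit of esBAF, a SWI/SNF-type complex of ES cells that moves or evicts nucleosomes. The comparison asks whether the nucleosome pattern over these silent clusters differed after tamoxifen, as part of the study's question on esBAF and nucleosome spacing.

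The RefSeq gene table lists 39 Hox genes in the 4 clusters, 11 in HoxA, 10 in HoxB, 9 in HoxC and 9 in HoxD. Its build, GRCm38.p6, differs from that of the calls, and only names and gene order were taken from it. The lower-numbered genes, which are expressed towards the head, lie at the low-coordinate end of HoxA and at the high-coordinate end of the other clusters. Promoter sequences were found for 22 of the 39 genes. The 250 bases before the start held a median of 12.5 CG dinucleotides over the 24 promoters of these genes (range 2 to 35), against a median of 6 over 32851 RefSeq promoters. At least 10 CG dinucleotides were present in 62.5% of the Hox promoters and in 37.8% of all promoters. The promoter of the lowest-numbered gene with an entry in each cluster is printed below to show how much these starts differ in CG content, with each CG in capitals (RefSeq, GRCm38.p6, 5′ to 3′ on the strand of the gene, ending 1 base before the start).
Hoxa2: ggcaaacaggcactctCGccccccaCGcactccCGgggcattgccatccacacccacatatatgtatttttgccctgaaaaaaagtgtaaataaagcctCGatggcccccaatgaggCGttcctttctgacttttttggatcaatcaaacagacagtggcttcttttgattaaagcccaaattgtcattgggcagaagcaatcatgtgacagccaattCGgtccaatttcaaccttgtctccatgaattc
Hoxb1: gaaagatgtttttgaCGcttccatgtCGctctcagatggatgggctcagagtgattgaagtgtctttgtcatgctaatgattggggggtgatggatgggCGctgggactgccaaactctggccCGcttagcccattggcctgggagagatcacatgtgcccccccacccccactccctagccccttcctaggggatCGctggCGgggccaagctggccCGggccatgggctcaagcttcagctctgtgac
Hoxc4: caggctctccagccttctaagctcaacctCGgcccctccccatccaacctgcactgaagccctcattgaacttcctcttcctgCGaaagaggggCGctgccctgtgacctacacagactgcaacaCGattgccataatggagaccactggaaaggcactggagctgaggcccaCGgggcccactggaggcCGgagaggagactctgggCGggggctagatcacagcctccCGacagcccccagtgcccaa
Hoxd1: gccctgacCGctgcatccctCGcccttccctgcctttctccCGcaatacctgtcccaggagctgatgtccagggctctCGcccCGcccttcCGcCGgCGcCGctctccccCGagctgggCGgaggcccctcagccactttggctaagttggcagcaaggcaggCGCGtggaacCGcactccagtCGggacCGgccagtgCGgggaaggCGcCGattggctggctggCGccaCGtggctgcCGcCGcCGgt
Hoxa2, on the minus strand of chromosome 6, had 6 CG dinucleotides, Hoxb1 on the plus strand of chromosome 11 had 7 and Hoxc4 on the plus strand of chromosome 15 had 8. Hoxd1, on the plus strand of chromosome 2, had 24. Because the builds differ, no nucleosome call was placed on these sequences.

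In all 4 clusters fewer nucleosomes were called in the tamoxifen library than in the ethanol library, although the tamoxifen list as a whole was 9.60% longer. HoxA had 117 calls with ethanol and 87 with tamoxifen, the largest difference of the 4. HoxB had 152 calls with ethanol and 131 with tamoxifen. HoxC had 93 and 77. HoxD, the sparsest cluster, had 81 and 70. Together the clusters held 17.6% fewer calls after tamoxifen. In counts not scaled for the longer tamoxifen list, 8 of 8 flanks held more. Scaled by list length, the tamoxifen to ethanol ratios of the flanks lay on both sides of 1, from 0.974 to 1.09.

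Per 10 kb, HoxA had 9.75 calls with ethanol (exact Poisson interval 8.06 to 11.7) and 7.25 with tamoxifen (5.81 to 8.94). All intervals given here are at 95% and cover counting error only, and they treat calls as independent. In HoxB the densities were 8.22 (6.96 to 9.63) and 7.08 (5.92 to 8.40) per 10 kb, and in HoxC 7.15 (5.77 to 8.76) and 5.92 (4.67 to 7.40). In HoxD they were 6.75 (5.36 to 8.39) and 5.83 (4.55 to 7.37). Within each cluster the intervals of the 2 libraries overlapped. The density over all autosomes was 5.22 with ethanol and 5.72 with tamoxifen, so that every cluster stood above its library's autosomal average. With tamoxifen, however, the intervals of HoxC and HoxD included that average. The average was taken over the full length of each autosome up to its last call. Any stretch that could not be called is included and lowers it.

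**Figure D1:**
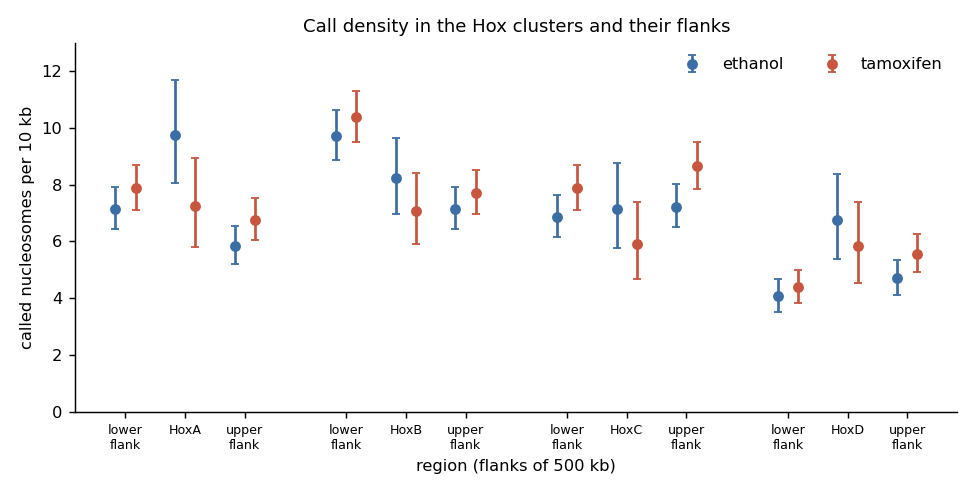
Called nucleosomes per 10 kb (vertical axis) in each Hox cluster and in its 500 kb lower and upper flank, for the ethanol and the tamoxifen library; bars are 95% exact Poisson intervals for counting error in 1 library each. In HoxA the ethanol value of 9.75 lies above the tamoxifen value of 7.25, and the same order holds in the other clusters. In every flank the tamoxifen value is the higher one, without scaling for the longer tamoxifen list.

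All 4 clusters stood lower against their flanks with tamoxifen than with ethanol. HoxA and HoxD were denser than their flanks with ethanol, at 9.75 against 6.49 and 6.75 against 4.38 calls per 10 kb. After tamoxifen HoxA was level with its flanks, at 0.990 times their density, and HoxD stood at 1.17 times. With ethanol HoxB and HoxC had 0.975 and 1.02 times the density of their flanks, and with tamoxifen 0.782 and 0.717 times. For HoxB the ethanol value averages 0.845 times the lower and 1.15 times the upper flank. The log2 ratio of the tamoxifen to the ethanol value was -0.60 (-1.03 to -0.17) in HoxA and -0.50 (-0.96 to -0.04) in HoxC. In HoxB it was -0.32 (-0.68 to 0.05) and in HoxD -0.39 (-0.89 to 0.10), intervals that included 0. Over the 4 clusters the log2 ratio of cluster to flank density was 0.28 (interval 0.13 to 0.42) in the ethanol library and -0.17 (-0.33 to -0.01) in the tamoxifen library. The tamoxifen interval reached above 0 without HoxB (-0.12) or without HoxC (-0.07), with flanks of 200 kb (-0.15), with limits drawn 10 kb inward (-0.13) and when only calls of at least the median score were used (-0.12).

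Scaled by the total calls of each library, the ratio of tamoxifen to ethanol calls was 0.752 over the 4 clusters (exact Clopper-Pearson interval of the split 0.653 to 0.865), and 1.03 in the flanks (0.973 to 1.08). HoxA had the lowest ratio, 0.678 (0.508 to 0.903). HoxC followed with 0.755 (0.551 to 1.03), then HoxB with 0.786 (0.618 to 1.00) and HoxD with 0.788 (0.564 to 1.10). The 4 values did not differ from each other beyond their intervals, those of HoxC and HoxD included 1, and that of HoxB ended just below 1. The 8 flanks lay between 0.974, the lower flank of HoxB, and 1.09, the upper flank of HoxC. The ratio of the clusters relative to that of their flanks was -0.45 on the log2 scale (-0.66 to -0.23, from the 4 counts as Poisson counts). On the rest of chromosomes 6, 11, 15 and 2 the ratios were 1.00, 0.986, 0.993 and 0.999.

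The flanks were also followed in steps from the cluster limits. In steps of 50 kb outward, with the same step of the 4 clusters added up, the 20 ratios ran from 0.885 to 1.16 with a median of 1.03. All 20 were above the 0.752 of the clusters. The 50 kb just below the clusters had 131 ethanol and 153 tamoxifen calls, a ratio of 1.07 (0.838 to 1.36), and the 50 kb just above had 156 and 161, a ratio of 0.942 (0.751 to 1.18). The lowest step, 50 to 100 kb below the clusters, had 133 and 129 calls, a ratio of 0.885 (0.689 to 1.14). The intervals of these last 2 steps, among others, included the ratio of the clusters, so the place where the difference ends is not resolved.

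**Figure D2:**
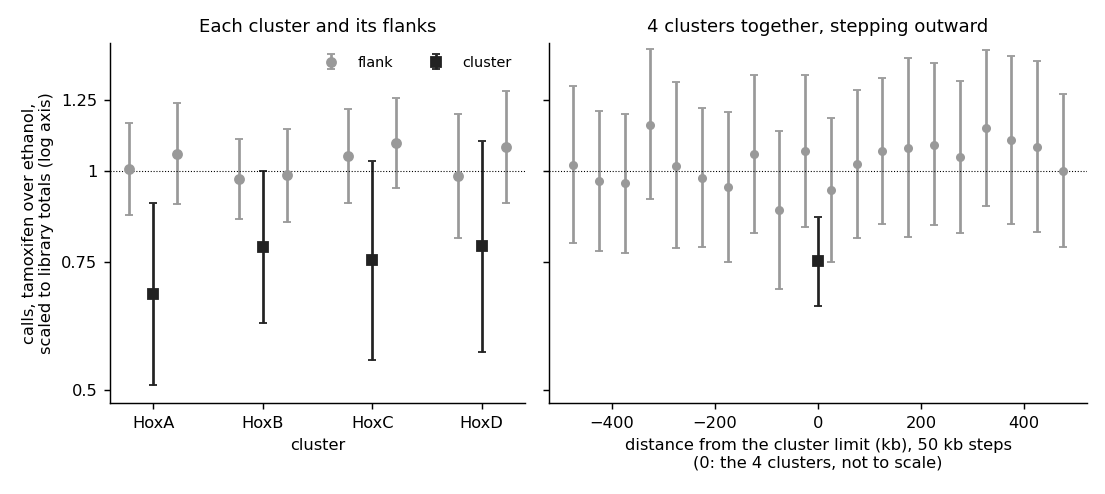
Ratio of tamoxifen to ethanol calls, scaled to the library totals (vertical log axis), for each cluster and its 2 flanks (left) and for the 4 clusters together with 50 kb steps outward on both sides (right); squares are clusters, circles are flanks, bars are 95% exact intervals of the split. The 4 clusters lie between 0.678 and 0.788, and the 20 outward steps between 0.885 and 1.16.

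Ratios this low were uncommon for stretches of this length. There were 10306 autosomal windows of 120 kb that reached the median of the scaled counts, and in 1.31% of them the scaled ratio was below 0.8, while in 2.25% it was higher by the same factor. In all 4 clusters it was below 0.8, a limit chosen after their ratios had been seen, and none was over 1.5-fold lower, as 0.0291% of the windows were. Among the 2733 windows whose density lay in the range of the clusters, 1.76% had a ratio below 0.8, and the median of their ratios was 1.01, with 0.849 and 1.19 as the 5th and 95th percentiles. HoxB and HoxC are longer than 120 kb, so the windows compared with them hold fewer calls and vary more. HoxB (0.786) and HoxD (0.788) lay only just below the limit. The windows were not matched to the clusters on CG content. The clusters were chosen with earlier results of these data known, so the shares do not measure how surprising the ratios are.

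In HoxA, HoxB and HoxC most windows of 10 kb had fewer calls with tamoxifen, 9 of 12, 13 of 19 and 8 of 13, whereas in HoxD 6 of 12 had fewer and 5 had more. Of the 56 windows of 10 kb or less into which the clusters were divided, 36 had fewer calls with tamoxifen, 4 had equal numbers and 16 had more. In the flanks 112 of 400 windows had fewer and 231 had more, in counts not scaled for the longer tamoxifen list. Among the 49 windows of full length in the clusters that reached the autosomal median of scaled counts (3.82), 23 were over 1.5-fold lower with tamoxifen after scaling, or 46.9%, against 10.1% of all such autosomal windows and 5.68% of those in the flanks. Over 1.5-fold higher were 2 of the 49, against 9.2% of the autosomal windows. Windows of 1 cluster lie next to each other and are not independent. They divide the same calls that give the ratios of the clusters, with few calls in each. The window shares therefore restate the counts and are not separate evidence.

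HoxA had its lowest ratio 80 to 90 kb from its low-coordinate limit (chromosome 6, 52180000 to 52190000), with 12 ethanol calls and 4 tamoxifen calls, a scaled ratio of 0.304 (0.0715 to 1.00). Its highest was 1.22, 40 to 50 kb from the limit, with 3 and 4 calls. The window from 60 to 70 kb held 14 and 17 calls and was one of the 2 windows of HoxA with more calls after tamoxifen. In HoxC the lowest window, 102835000 to 102845000 on chromosome 15, had 8 and 3 calls, and in HoxD the lowest, 74520000 to 74530000 on chromosome 2, had 6 and 2. In HoxB the lowest window, 96180000 to 96190000 on chromosome 11, had only 1 and 0 calls. Single windows hold few calls, and each of these intervals included 1. HoxB also had the highest window of the 4 clusters, 96090000 to 96100000, with 7 ethanol and 14 tamoxifen calls, a ratio of 1.82 (0.689 to 5.34).

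HoxB and HoxC were next divided at their midpoint, a division chosen with the window values known. In HoxB the side with the higher-numbered genes had 78 ethanol and 81 tamoxifen calls, a scaled ratio of 0.947 (0.686 to 1.31). The side with the lower-numbered genes, which include Hoxb1, had 74 and 50, a ratio of 0.616 (0.422 to 0.895). The longest stretch of HoxB in which each window had fewer calls with tamoxifen was 11 windows, from 96120000 to 96230000. It begins on the other side of the midpoint and had 92 ethanol and 60 tamoxifen calls in all. The stretch was picked by this difference, so its counts are not separate evidence. In HoxC the side with the higher-numbered genes had 49 calls in each library, and the side towards Hoxc4 had 44 and 28, a ratio of 0.581 (0.348 to 0.954). HoxD had the opposite order to HoxB and HoxC, with 43 and 42 calls on the side of Hoxd1 and 38 and 28 on the side of Hoxd13. The 2 sides had overlapping intervals in each of these clusters. The limits of single genes on mm9 were not used here.

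**Figure D3:**
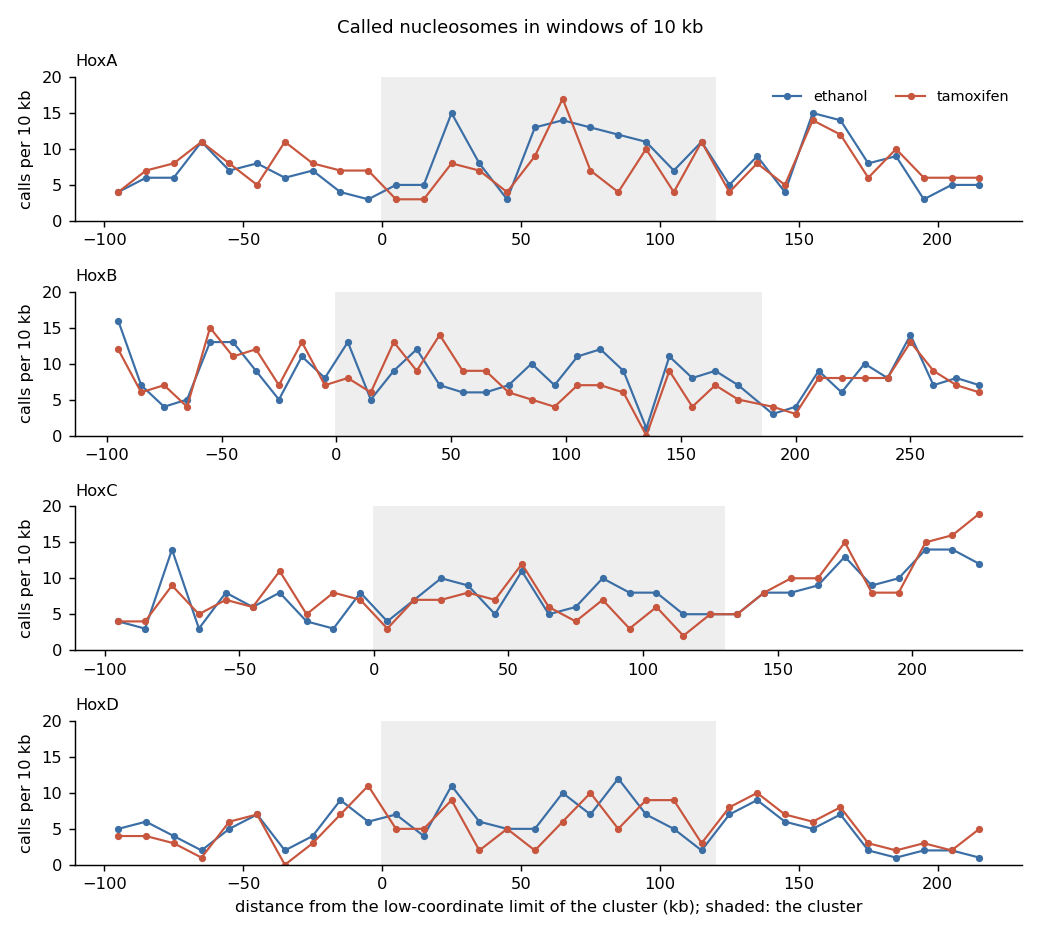
Number of called nucleosomes in successive windows of 10 kb (vertical axis) against distance from the low-coordinate limit of each cluster, with 100 kb of flank on each side; the cluster is shaded, and the last 5 kb of HoxB, a shorter window, is left out. In HoxB the tamoxifen line runs below the ethanol line over the 11 windows from 70 to 180 kb, a stretch picked for having fewer calls throughout. In HoxA the 2 lines are farthest apart from 80 to 90 kb, at 12 and 4 calls.

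The share of calls without a counterpart in the other library differed between clusters and flanks. A call was taken as matched when the other library had a call with its centre within 100 bp. In the clusters 239 calls were matched in each library, while 204 ethanol calls and 126 tamoxifen calls were unmatched. Matching is nearly one to one, so that matched counts are about equal by construction (1715 and 1722 in the flanks) and a difference in calls falls on the unmatched ones. The unmatched shares therefore restate the counts and are not separate evidence. Unmatched calls made up 46.0% of the ethanol calls in the clusters (Wilson interval 41.5 to 50.7%) and 34.9% (33.1 to 36.7%) in the flanks. For tamoxifen the order was the opposite, 34.5% (29.8 to 39.5%) in the clusters and 41.8% (40.1 to 43.6%) in the flanks. Per cluster, 49.6% of the ethanol calls were unmatched in HoxA, 46.7% in HoxB, 41.9% in HoxC and 44.4% in HoxD, each above its own flanks (32.2 to 36.8%). The corresponding tamoxifen values were 32.2, 38.9, 28.6 and 35.7%, each below its own flanks (40.4 to 44.5%).

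Positions that were shared closely gave the same picture from the other side. Of the ethanol calls in the clusters, 37.2% (32.9 to 41.8%) had a tamoxifen call within 20 bp, against 43.6% (41.7 to 45.5%) in the flanks. Among tamoxifen calls 45.2% (40.2 to 50.3%) had such a partner in the ethanol list, and 38.8% (37.1 to 40.6%) did in the flanks. HoxA had the lowest share among ethanol calls, 31.6% (23.9 to 40.5%), and HoxB the highest, 40.8% (33.3 to 48.7%), with overlapping intervals. When the calls of the clusters were displaced by 1000 to 10000 bp before looking for partners, 2.03 to 4.06% of the ethanol calls and 2.19 to 4.38% of the tamoxifen calls had one within 20 bp. Calls with exactly the same centre in both libraries numbered 30. A share over fewer calls in 1 list is tied to that number, so these shares and the ratio of calls are not separate evidence. The difference between clusters and flanks among ethanol calls, -6.38 percentage points (-11.3 to -1.49), included 0 without HoxA (-4.62) and when only calls of at least the median score were used (-6.67). Among tamoxifen calls it was 6.39 percentage points (0.989 to 11.8), and included 0 without HoxB (5.62), with partners within 10 bp (4.01), with the tamoxifen list shortened by score (5.08) and with calls of at least the median score (2.58).

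**Figure D4:**
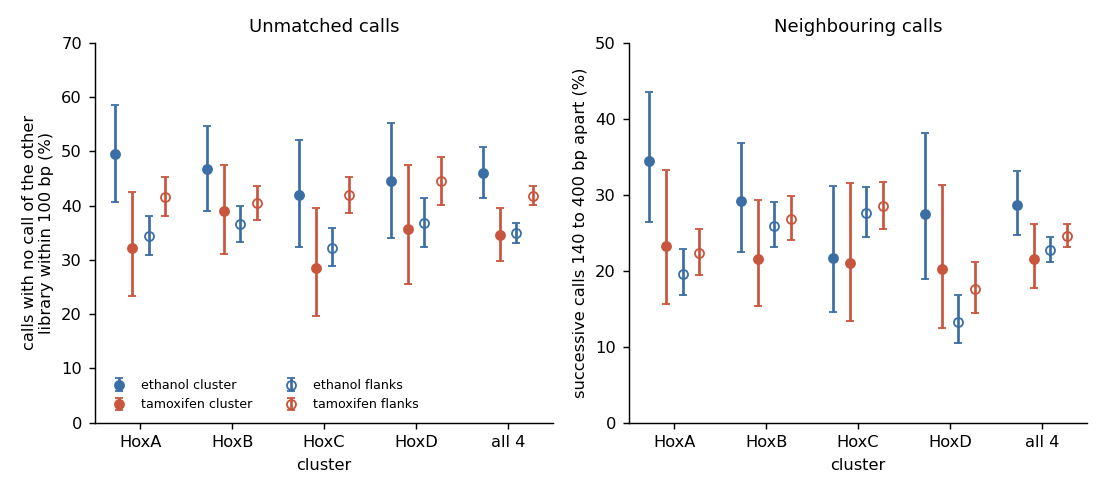
Share of calls with no call of the other library within 100 bp (left, percent) and share of successive calls 140 to 400 bp apart (right, percent), by cluster and for the 4 together; filled circles are clusters, open circles their flanks, bars are 95% Wilson intervals. Unmatched ethanol calls reach 46.0% over the 4 clusters against 34.9% in the flanks, and the tamoxifen values are 34.5% and 41.8%.

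Calls on both sides of the median score were fewer after tamoxifen. The authors' score, whose definition is not given in the sources used here, was read only within its own list, where its median was 86.0 in each. Of the cluster calls, 209 with ethanol and 177 with tamoxifen were at or above that median, a scaled ratio of 0.773 (0.629 to 0.949). Below it the numbers were 234 and 188, a ratio of 0.733 (0.602 to 0.892). The share of cluster calls at or above the list median was 47.2% with ethanol and 48.5% with tamoxifen, beside 48.9% and 47.0% in the flanks, with overlapping intervals in each library. Calls at or above the 90th percentile of their list made up a smaller share in the clusters than in the flanks, 5.64% (3.85 to 8.20%) against 8.62% (7.61 to 9.75%) with ethanol and 4.93% (3.14 to 7.66%) against 7.40% (6.51 to 8.40%) with tamoxifen. The differences were -2.97 percentage points (-5.38 to -0.57) and -2.47 (-4.88 to -0.05). HoxC did not share this, with 9.68% against 10.1% in its flanks with ethanol and 9.09% against 7.38% with tamoxifen. For single clusters the interval of the difference lay off 0 only in HoxB with ethanol (7 such calls). With tamoxifen it did so only in HoxA (3 calls) and HoxD (1 call). None of the 25 ethanol and 18 tamoxifen calls at or above that percentile in the clusters was unmatched, and in the flanks 9 of 227 and 8 of 219 were, so that about 1 unmatched call or fewer in each library would match the share in the flanks, and nothing particular to the clusters is read from the count. Unmatched cluster calls had median scores of 69.0 with ethanol and 70.55 with tamoxifen, and matched calls 101.6 and 95.1.

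In HoxA, HoxB and HoxC the highest-scoring position was the same in both libraries. In HoxA it was the ethanol call at 52161331 to 52161421 on chromosome 6, with a score of 526.3, and the tamoxifen call 15 bp from it, with a score of 279.5. Start and end are those of the deposited lists. In HoxB it was the call at 96101551 to 96101641 on chromosome 11, scored 634.6 in the ethanol list, and its partner at 10 bp, scored 393.8 in the tamoxifen list. In HoxC it was the call at 102799411 to 102799501 on chromosome 15, scored 601.6, and its partner at 20 bp, scored 505.2. HoxD had no position so high, and its leading calls differed. The ethanol call at 74554081 to 74554181 on chromosome 2 scored 297.0 and had a tamoxifen partner scored 128.7 at 5 bp, and the tamoxifen call at 74529831 to 74529941 scored 278.4 and had an ethanol partner scored 180.7 at 10 bp. Taking the 3 highest calls of each list in each cluster, all 24 had a partner within 25 bp. High-scoring calls of the flanks were mostly matched too, and nothing particular to the clusters is read from this. The lists differ in length and the scale of the score is unknown, so no change is read from these pairs of scores.

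**Figure D5:**
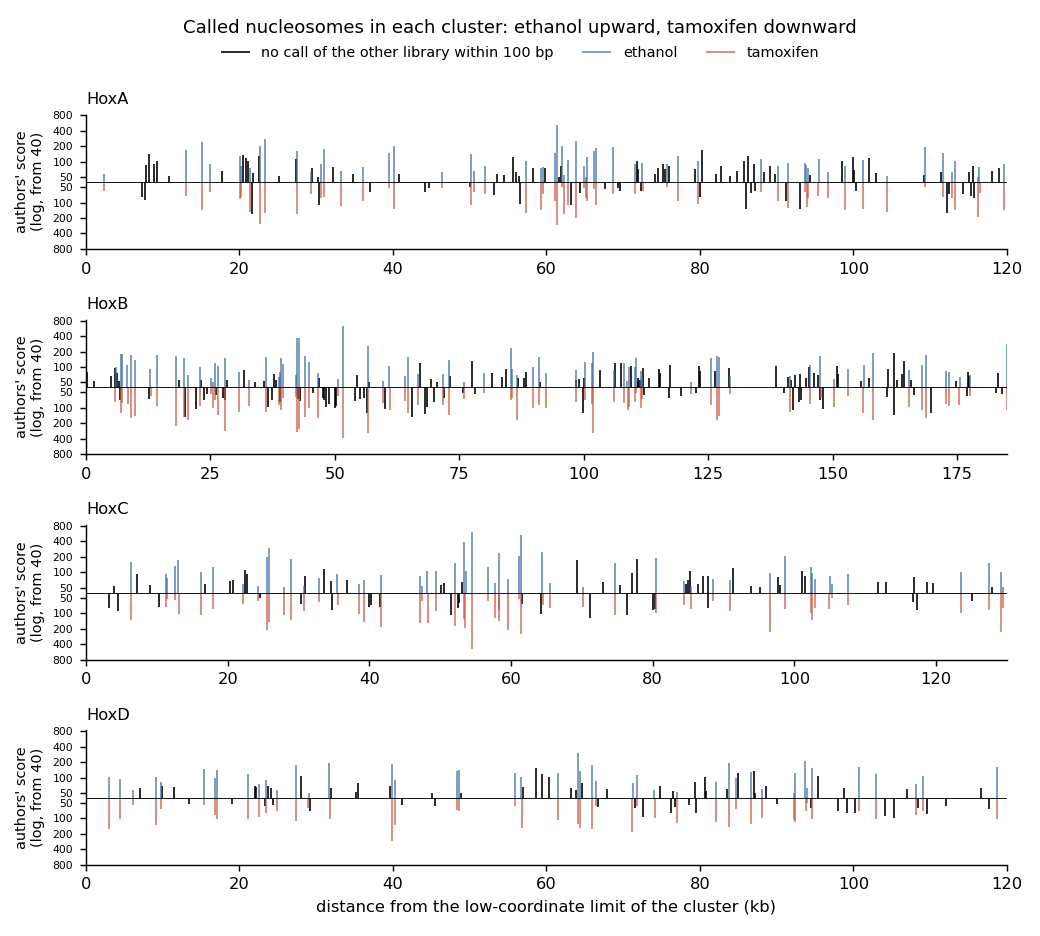
Every call of the 4 clusters at its distance from the low-coordinate limit, with the authors' score as line height on a log scale starting at 40, ethanol upward and tamoxifen downward; black lines are calls with no call of the other library within 100 bp. Black lines are more numerous on the ethanol side, 204 against 126, and none of them is at or above the 90th percentile of its list.

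Successive calls lay farther apart in the clusters after tamoxifen. Between successive centres the median distance was 885 bp in the ethanol and 1000 bp in the tamoxifen library, while in the flanks it was 995 and 865 bp. By cluster the ethanol and tamoxifen medians were 670 and 907.5 bp in HoxA, 845 and 950 bp in HoxB, 985 and 1075 bp in HoxC and 920 and 1345 bp in HoxD. Fewer calls give longer distances by construction and tend to give a lower share of close neighbours, so neither measure is separate evidence. Direct neighbours, 140 to 400 bp apart, made up 28.7% (24.7 to 33.1%) of successive calls with ethanol and 21.6% (17.7 to 26.1%) with tamoxifen in the clusters, against 22.7% (21.2 to 24.4%) and 24.6% (23.1 to 26.2%) in the flanks. HoxA had the largest difference, 40 of 116 successive calls with ethanol and 20 of 86 with tamoxifen, or -11.2 percentage points. In each single cluster the interval of this difference included 0. For neighbours up to 300 bp the HoxA difference was only -0.62, again with an interval that included 0. With the tamoxifen list shortened by score it was -14.7, with an interval below 0. HoxC had almost none, with 21.7 and 21.1%. The difference over the clusters, -7.09 percentage points (-13.1 to -1.10), included 0 for neighbours up to 300 bp (-2.74), without HoxA (-5.53), without HoxB (-6.83) and when only calls of at least the median score were used (-6.05).

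The spacing of the neighbours themselves had no common direction over the clusters. Their mean distance with ethanol and tamoxifen was 260 and 231 bp in HoxA, 261 and 262 bp in HoxB, 276 and 248 bp in HoxC and 236 and 249 bp in HoxD. The mean distance in the clusters was 259 bp (SD 70.8 over 126 pairs of calls) with ethanol and 248.7 bp (SD 69.1 over 78) with tamoxifen, and in the flanks 254 and 254 bp. The limits of 140 and 400 bp bound these means, which may include pairs 2 nucleosome repeats apart, and the difference was not tested. In all 4 clusters there were 5 ethanol and 4 tamoxifen runs, a run being at least 3 calls in a row with steps of 150 to 230 bp. The longest was a run of 4 tamoxifen calls in HoxB with a mean spacing of 198 bp, between centres at 96092416 and 96093011, where the ethanol library had 2 calls. HoxD had no such run in either library. These numbers are too small to compare regularity between the libraries.

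Long stretches without a call were partly common to both libraries. In HoxB the longest lay at the same place, from centre 96179461 to centre 96188551 with ethanol (9090 bp, with no tamoxifen call inside) and from 96179446 to 96190151 with tamoxifen (10705 bp, with 2 ethanol calls inside). In the other clusters the longest tamoxifen gaps held calls of the ethanol library, 6 in the 6055 bp gap of HoxA, 3 in the 9185 bp gap of HoxC and 4 in the 8150 bp gap of HoxD. The longest ethanol gaps held 2 tamoxifen calls in HoxA (5700 bp), 0 in HoxC (5445 bp) and 2 in HoxD (7650 bp). Gaps of over 5000 bp made up 8 of 439 successive distances with ethanol and 14 of 361 with tamoxifen in the clusters. In the flanks they were 113 of 2626 and 95 of 2952. Calls covered 8.88% of the clusters with ethanol and 7.24% with tamoxifen, against 7.38 and 8.25% of the flanks. Long gaps and coverage both depend on the number of calls and are not separate evidence. The lists hold only nucleosomes that passed the authors' criteria, so a stretch without a call is not a stretch without nucleosomes.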

How the data were processed

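MNase-seq was done on 1 ethanol and 1 tamoxifen library of Brg1fl/fl ES cells. For each library the authors deposited a list of nucleosome calls, each with a score between 50.1 and 3250. The submitters' processing notes name Bowtie 0.12.9 and build mm9. Caller, cutoffs, duplicate handling and read depth were not given in the sources used here. Calls start and end in steps of 10 bp and do not overlap. Calls were assigned to regions by their centre and counted. Ratios were scaled by the number of calls per library. Named windows, calls, gaps and runs followed a rule: the 3 highest calls, the longest gap and run of each list and the extreme 10 kb windows of each cluster. The clusters and measures were chosen with earlier results of these data known. Steps of 50 kb, the division at the midpoint, the longest stretch of windows with fewer calls and windows of 120 kb were added after the counts had been seen. So were the split of matched and unmatched calls by score and leaving out each cluster in turn. The division of HoxA at its midpoint, and with it the sum over the 4 clusters, is not reported here. The scaled ratio with its interval, the sharing of positions and the search for runs were tested on simulated or made-up data. The simulated counts and positions were independent, and the other measures were not tested in this way. Software was scipy 1.17.1, statsmodels 0.14.6, pandas 2.3.3, numpy 2.4.6 and matplotlib 3.10.9 under Python 3.11.15.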

Additional observations from a re-analysis of the deposited data

How the results depend on the processing

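The log2 scaled ratio of tamoxifen to ethanol calls stayed below 0 under 29 of 29 alternatives, for the 4 clusters together and for each. Over the 4 clusters it ran from -0.45 when scaled to the flanks to -0.28 without scaling, beside -0.41 as reported, and leaving out each cluster in turn gave -0.45 to -0.36. For single clusters it ran from -0.68 to -0.43 in HoxA, -0.34 to -0.18 in HoxB, -0.50 to -0.26 in HoxC and -0.41 to -0.21 in HoxD. Only HoxA kept its interval off 0 under all 5 of its alternatives. Of 72 alternatives for the main values, 58 belonged to a reported value with an interval off 0. In 20 of these 58 the interval then included 0. None of the 72 gave a value outside the interval of the reported value. In 1 the sign turned, namely the share of higher-scoring tamoxifen calls, which in the clusters was above that of the flanks at the list median (48.5 and 47.0%) and below it at the 90th percentile (4.93 and 7.40%). Both lists were also cut to calls of at least the median score, which drops partners that score lower. In HoxA the share of ethanol calls with a partner within 20 bp then lay farther below the flanks, -22.1 points beside -11.2. Both of these intervals lay below 0. With partners of any score, 41.1% of such higher-scoring ethanol calls had one in HoxA and 55.5% in its flanks. For tamoxifen calls the cut gave -9.11 points beside 4.55, and both of these intervals included 0. The cause was not tested. Read depth is unknown, and with 70 to 152 calls per cluster the intervals of single clusters are wide. No paired analysis was possible because there is 1 library per group.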

Other observations

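Pairs of calls 350 to 410 bp apart, the distance of 2 nucleosome repeats, were set against pairs 260 to 320 bp apart. In the clusters there were 25 and 19 such pairs with ethanol, a ratio of 1.32 (interval 0.725 to 2.39), and 21 and 10 with tamoxifen, a ratio of 2.10 (0.989 to 4.46). In the flanks the ratios were 1.46 (1.15 to 1.87) and 1.47 (1.18 to 1.84). The clusters hold too few pairs to order the libraries. Calls in the clusters were 111.3 bp wide on average with ethanol and 110.1 bp with tamoxifen, and those of the flanks 112.1 and 111.5 bp.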
